A study of Mus musculus with 2 samples.

Results

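The transcripts examined were 36 genes of macroautophagy, taken from the deposited table by their symbols: the core machinery that builds the autophagosome and 4 cargo receptors. All 36 were found among the 15576 genes of the table. The series compares 2 libraries of RNA from wild-type mouse bone marrow-derived macrophages, which are macrophages grown in culture from marrow cells. For the library called DCA, the cells had been treated for 24 h with deoxycholic acid, a bile acid formed by gut bacteria, at 100 µM. The cells of the library called NC had not. It is not clear from the labels whether the cells were harvested at the end of the treatment or a day later. No vehicle, strain, sex or age of the mice is given in the sources used here, and no genetic change is named for either group. With 1 library per group there is no replicate check, no p-value and no standard error, and each difference below is between these libraries.

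Macroautophagy encloses cytoplasm in a double membrane and delivers it to lysosomes. The ULK kinase complex starts the process, a class III phosphatidylinositol 3-kinase (PI 3-kinase) marks the membrane with the lipid PI3P, and readers of that lipid bring in lipid carriers and a conjugation machinery. That machinery attaches small ubiquitin-like ATG8 proteins, the LC3 and GABARAP families, to the growing membrane, where cargo receptors bind them. In macrophages part of this machinery also attaches LC3 to phagosomes that hold engulfed particles. Much of autophagy is controlled on proteins, by phosphorylation and lipidation, which RNA levels do not measure.

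The read totals behind the FPKM values (reads per kilobase of gene and 1e6 reads) came to 56.6 M in the DCA library and 59.2 M in the NC library, where M is 1e6. Whole reads could be rebuilt for 34 of the 36 genes. Counts ran from 351 to 31226 reads in a library, with a median of 3497 in NC. Ratios are FPKM in DCA over FPKM in NC, followed by the exact 95% interval (Clopper-Pearson), which covers counting error only and compares libraries, not conditions. PCR copies can make the true error larger. The interval's half-width was between 1.58% and 14.8% of the ratio, with a median of 4.76%. The macrophage label was checked against 10 markers, among which the lysosomal glycoprotein gene Cd68 had 389 FPKM in DCA against 389 in NC, and the complement gene C1qb 187 and 206. Neutrophil transcripts were also abundant in both libraries, with S100a9 at 1699 FPKM in DCA against 1471 in NC.

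The autophagy transcripts were close between the libraries. Of the 36 genes, 18 were higher and 18 lower in DCA, where 53.5% of the 9656 genes whose mean FPKM was 1 or more were higher. The median difference in log2(FPKM + 1), DCA minus NC, was 0.0058 for the 36 genes and 0.0067 for all 9656. After rescaling each library to a sum of 1e6, it was -0.0051 for the 36 genes. It was then -0.0036 for the 11706 genes whose rescaled mean was 1 or more. Without rescaling, the middle range of the differences (quartiles) was -0.042 to 0.064 for the 36 genes and -0.046 to 0.063 for all 9656. The FPKM ratio was within 5% of equality for 20 of the 36 (55.6%, against 53.2% of all genes) and within 10% for 30 (83.3%, against 79.9%). On the FPKM + 1 scale, where ratios of weakly expressed genes come out too small, 3 of the 36 were at least 1.1-fold higher and 0 were that far lower. Among all genes, 8.99% lay that far above NC and 4.79% that far below. None of the 36 was 1.5-fold apart, a limit that 0.497% of all genes passed. The counting interval lay above equality for 13 of the 36 (36.1%) and below it for 4 (11.1%), or 47.2% together. The same held for 25.6% and 20% of the 9371 genes with rebuilt reads, or 45.7% together. The autophagy genes were thus near the whole table in the share of intervals that left out equality, but with more of these above and fewer below. This split depends on the scaling and was not recounted after rescaling, for the 36 or for all genes. The summed FPKM of all genes was higher in DCA by a factor of 1.00924. The lower ends for Uvrag, Gabarapl1, Pik3c3 and Pik3r4 lay under that factor, as did the upper ends for Ulk2 and Optn, which lay above 1. At least 1.1-fold apart in either direction were 8.33% of the 36 against 13.8% of all genes.

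**Figure D1:**
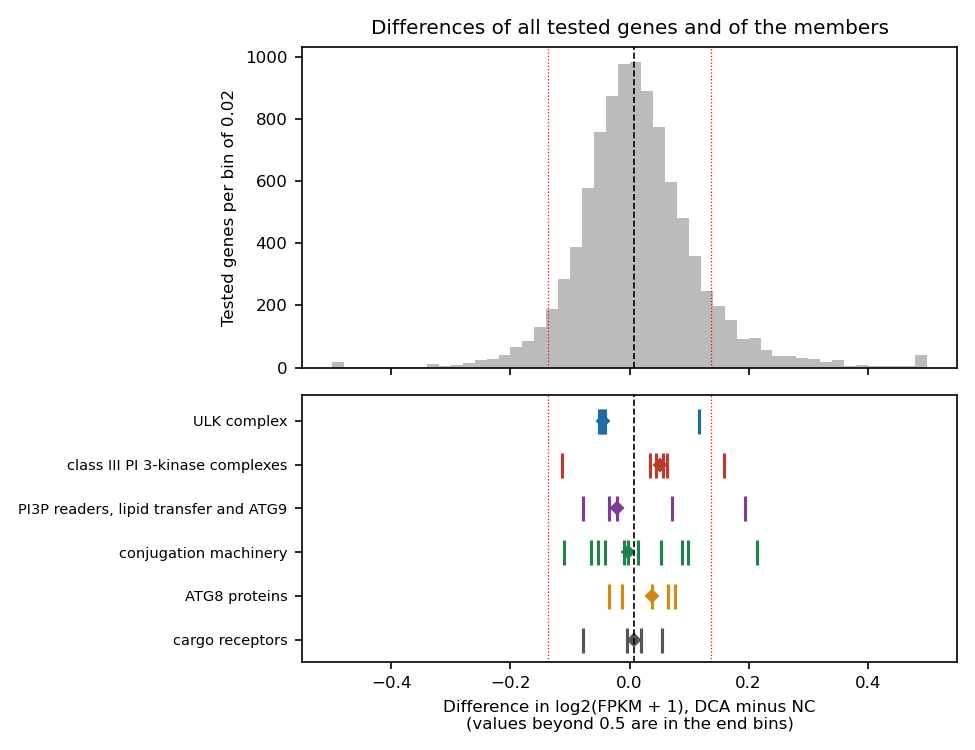
The upper panel counts the 9656 genes whose mean FPKM was 1 or more by log2(FPKM + 1) in DCA minus that in NC, in bins of 0.02, and the lower panel marks each of the 36 autophagy genes by role, with a diamond at the median of each role. The dashed line is the median of all genes (0.0067), the dotted lines are 1.1-fold, and 3 autophagy genes lie beyond the upper line while 0 lie beyond the lower.

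The 3 genes at least 1.1-fold higher were Atg4c, Atg9a and Rubcn. Atg4c, one of the proteases that trim ATG8 proteins and later remove them from membranes (ENSMUSG00000028550), had 5.81 FPKM in DCA against 4.87 in NC, resting on 2163 and 1898 reads. Its ratio was 1.19 (1.12 to 1.27), and 329 of the 9656 genes had a larger difference upward. Atg9a, which encodes the multispanning membrane protein of the vesicles that seed the autophagosome (ENSMUSG00000033124), had 3.05 FPKM in DCA against 2.54 in NC, giving a ratio of 1.20. Rubcn, which encodes the inhibitor Rubicon (ENSMUSG00000035629), had 3.33 FPKM in DCA against 2.88 in NC, resting on 4939 and 4471 reads, which gives a ratio of 1.16 (1.11 to 1.20). Atg4c shares no exon with another annotated gene, while Atg9a and Rubcn do, as given with their complexes.

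Levels of different genes can be compared only per length. The lengths in the deposited FPKM were matched by the summed lengths of all annotated transcripts of a gene, which lowers the FPKM of genes with many transcripts. Levels between genes are therefore given as rebuilt reads per kilobase of merged exons and 1e6 reads, called RPKM here, for the 34 genes with rebuilt reads. In NC they ran from 3.86 for Wipi1 to 219.9 for Gabarap. Gabarap and the cargo receptor gene Sqstm1 (157 RPKM in NC) stood apart from the rest, and the next was the receptor gene Tax1bp1 at 30.1. The other receptor gene with many transcripts, Nbr1, had 3.76 FPKM and place 21 of 36 in the deposited values, but 23.1 RPKM and place 7 of 34 per merged exons. Its 21 annotated transcripts sum to 42209 bases, while its merged exons hold 6871.

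**Figure D2:**
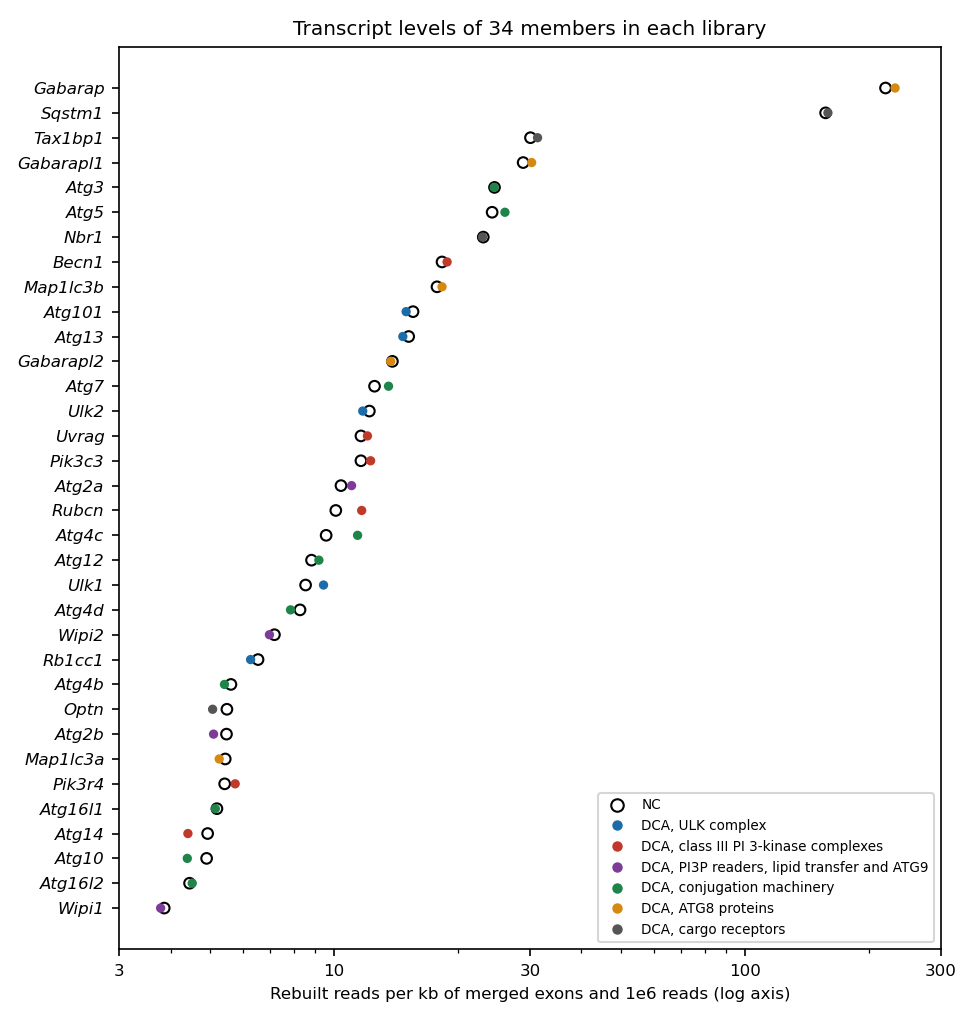
Each row is 1 of the 34 autophagy genes with rebuilt reads, ordered by its level in NC, and the axis gives reads per kilobase of merged exons and 1e6 reads on a log scale. Open circles are NC and filled circles DCA, coloured by role. Gabarap and Sqstm1 lie far to the right of the others, and the open and filled circles of most genes overlap.

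In the ULK complex, Ulk1 was higher in DCA and the other 4 genes were lower. Ulk1, the kinase gene (ENSMUSG00000029512, GRCm38 chromosome 5, 110784488 to 110810097, minus strand), stood at 4.29 FPKM in DCA against 3.88 in NC, resting on 3460 and 3275 reads. Its ratio was 1.11 (1.05 to 1.16). Ulk2, its paralogue (ENSMUSG00000004798, chromosome 11, 61775649 to 61855073, minus strand), stood at 7.28 FPKM in DCA against 7.56 in NC, giving a ratio of 0.964 (0.923 to 1.01). For each Ulk2 read there were 0.871 Ulk1 reads in DCA and 0.759 in NC, so the balance between the kinase transcripts differed by a factor of 1.15. The interval of that factor, 1.08 to 1.22, is an approximate 95% interval from the read counts on the log scale, as for the other pairs below. The pairs were chosen with the values in view, and of 10 computed, 7 had intervals that left out equality. No such share was computed for other gene pairs, so this count is not a result about the pairs. Intervals of single genes left out equality for 45.7% of the 9371 genes with rebuilt reads. The subunit genes of the complex had ratios close to one another. Rb1cc1, which encodes the scaffold FIP200, was at 0.959 (0.923 to 0.996), with 2.84 FPKM in DCA against 2.96 in NC. Atg13, the adaptor that carries regulatory phosphorylation sites, was at 0.968 (0.925 to 1.01), with 6.35 and 6.56 FPKM. Atg101, the partner of Atg13, was at 0.962 (0.893 to 1.04), with 9.97 and 10.4 FPKM. Of these only the interval of Rb1cc1 left out equality. The median difference of the complex was -0.045 on the log2(FPKM + 1) scale.

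The ratios of the PI 3-kinase genes spread from 0.895 for Atg14, the lowest of the 36, to 1.16 for Rubcn. The shared core of the kinase was slightly higher in DCA. Pik3c3, which encodes the catalytic subunit VPS34, had 4.39 FPKM in DCA against 4.16 in NC, giving a ratio of 1.06 (1.004 to 1.11). Pik3r4, the regulatory subunit VPS15, had 1.999 FPKM in DCA against 1.88 in NC, giving a ratio of 1.06 (1.01 to 1.12). Becn1, which encodes Beclin 1, had 5.99 and 5.83 FPKM, for a ratio of 1.03 (0.996 to 1.06). The core joins with either ATG14, which directs it to the forming autophagosome, or UVRAG, which places it on endosomes and late autophagosomes, and Rubicon binds and restrains the UVRAG form. The transcripts of these partners differed in direction. Atg14 (ENSMUSG00000037526) had 2.37 FPKM in DCA against 2.64 in NC, resting on 1078 and 1260 reads, which gives a ratio of 0.895 (0.825 to 0.972). Uvrag had 6.49 FPKM in DCA against 6.26 in NC, giving a ratio of 1.04, with an interval from 1.0009 to 1.07 that barely left out equality. Rubcn, given above, was the highest of the 6 genes. There were 4.58 Rubcn reads for each Atg14 read in DCA and 3.55 in NC, a factor of 1.29 (1.18 to 1.41). Uvrag against Atg14 gave a factor of 1.16 (1.06 to 1.27), and Rubcn against Uvrag 1.11 (1.06 to 1.18). The median difference of the 6 genes was 0.051, with 5 higher and 1 lower.

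Several of these genes share exon sequence with another annotated gene on the opposite strand. The strand setting of the counting was not stated, so reads of such a pair cannot be told apart over the shared bases. Rubcn shares 171 of its 7478 exonic bases (2.29%) with Fyttd1, which had a ratio of 1.01 (0.962 to 1.05). Atg14 shares 239 of 4322 bases (5.53%) with the antisense gene Gm49004, which has no value here. Uvrag shares 1589 of 9035 bases (17.6%) with the antisense gene Gm45187, which has no value here either. Becn1 shares 3104 of 7065 bases (43.9%) with Cntd1, with 67 DCA and 126 NC reads, against 7531 and 7661 for Becn1. In all, 14 of the 36 autophagy genes overlap another gene in this way, on the same or the opposite strand.

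**Figure D3:**
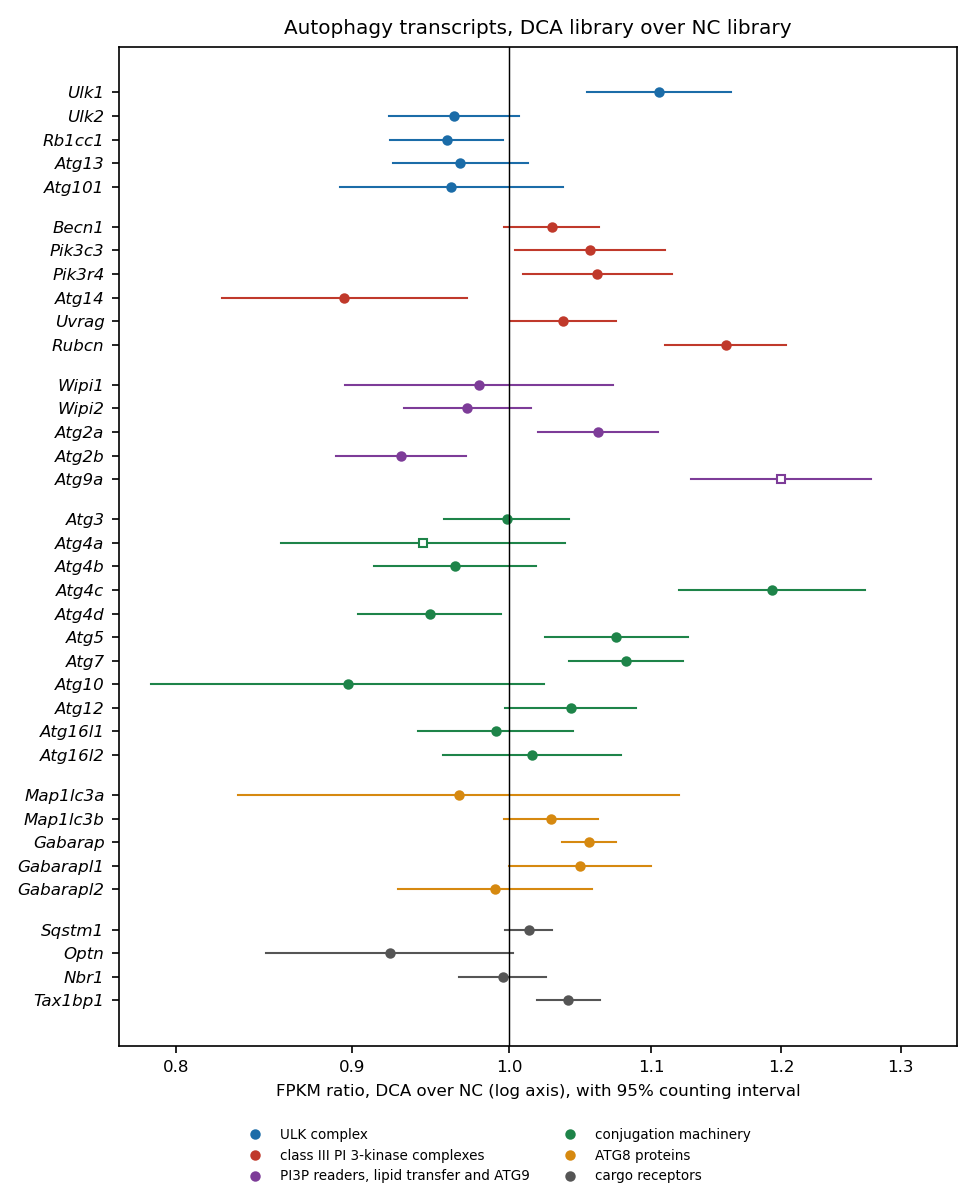
Points are the FPKM ratios of the 36 autophagy genes, DCA over NC, on a log axis, with 95% intervals from counting reads, coloured and grouped by role. Open squares are Atg9a and Atg4a, whose reads were taken as the smallest whole pair with the same ratio. Ulk1, Rubcn, Atg9a and Atg4c lie to the right of the others in their groups, and Atg14 and Atg10 lie furthest to the left.

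Among the PI3P readers, lipid carriers and Atg9a, the paralogues of the lipid carrier ATG2, which moves lipid from the endoplasmic reticulum into the growing membrane, lay on opposite sides of equality. Atg2a had 5.44 FPKM in DCA against 5.13 in NC, resting on 4801 and 4735 reads, which gives a ratio of 1.06 (1.02 to 1.105). Atg2b had 2.98 FPKM in DCA against 3.20 in NC, resting on 3875 and 4360 reads, which gives a ratio of 0.930 (0.891 to 0.972). The factor between them was 1.14 (1.08 to 1.21). The PI3P readers had intervals that included equality. Wipi1 had 2.44 FPKM in DCA against 2.49 in NC, giving a ratio of 0.980 (0.896 to 1.07), and Wipi2, which recruits ATG16L1, had 5.20 and 5.35 FPKM, for a ratio of 0.972 (0.932 to 1.01), and the factor between them was 1.01 (0.914 to 1.11). The reads of Atg9a did not come out whole with the annotated lengths. The smallest whole numbers with its ratio are 2319 in DCA and 2023 in NC, which give an interval of 1.1298 to 1.27. Of its 5762 exonic bases, 1832 (31.8%) also lie in Gm29253 on the same strand, which has no value here, and 46 lie in Ankzf1 on the opposite strand, which had a ratio of 0.902 (0.853 to 0.954). How the reads of this locus were divided is therefore uncertain, and its part in the Atg9a ratio was not tested.

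The conjugation machinery works like a ubiquitin cascade. ATG7 is the activating enzyme, ATG3 and ATG10 are the conjugating enzymes for ATG8 proteins and ATG12, and the ATG12, ATG5 and ATG16L1 complex acts as the ligase. Atg7 had 3.79 FPKM in DCA against 3.50 in NC, resting on 5349 and 5176 reads, which gives a ratio of 1.08 (1.04 to 1.12). Atg5 had 22.1 FPKM in DCA against 20.6 in NC, resting on 3467 and 3377 reads, which gives a ratio of 1.07 (1.02 to 1.127). Both intervals lay above equality, and neither gene shares exons with another. Atg12, the protein joined to ATG5, had 8.51 and 8.16 FPKM, for a ratio of 1.04 (0.997 to 1.09). Atg3 had 18.7 FPKM in DCA against 18.7 in NC, giving a ratio of 0.998 (0.958 to 1.04). Atg10 was lower in DCA, at 2.27 FPKM against 2.53 in NC, but rested on 427 and 498 reads. Its ratio of 0.897 (0.787 to 1.02) had one of the widest intervals and no difference could be detected at its depth. The ligase scaffold Atg16l1 was at 0.991 (0.941 to 1.04), and its paralogue Atg16l2 at 1.02 (0.956 to 1.08), with a factor of 1.02 (0.947 to 1.11) between them.

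The 4 genes of the ATG4 proteases did not share a direction. Atg4c was higher, as given above. Atg4b, the paralogue known for the broadest activity on ATG8 proteins, had 3.41 FPKM in DCA against 3.53 in NC, giving a ratio of 0.964 (0.913 to 1.02). Atg4d had 5.46 FPKM in DCA against 5.76 in NC, giving a ratio of 0.948 (0.904 to 0.995). It shares 1405 of its 7264 exonic bases (19.3%) with Kri1 on the opposite strand, which had a ratio of 1.11 (1.04 to 1.19). Atg4a had 1.66 FPKM in DCA against 1.75 in NC, giving a ratio of 0.944. Its reads, taken like those of Atg9a as the smallest whole pair, were 827 and 917, with an interval of 0.858 to 1.04. There were 0.854 Atg4c reads for each Atg4b read in DCA and 0.690 in NC, a factor of 1.24 (1.14 to 1.34). Against Atg4d the factor was 1.26 (1.16 to 1.36). Over the 11 conjugation genes, 5 were higher and 6 lower, with a median difference of -0.0024.

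The transcripts of the ATG8 proteins differed by at most 5.49% in FPKM. Gabarap (ENSMUSG00000018567), the most abundant of them, had 122.7 FPKM in DCA against 116.3 in NC, resting on 24198 and 24006 reads. Its ratio was 1.05 (1.04 to 1.07). Gabarapl1 had 16.1 FPKM in DCA against 15.3 in NC, giving a ratio of 1.05, and the lower end of its interval, at 1.00002, was at equality. It shares 570 of 2013 exonic bases (28.3%) with 1700101I11Rik, which has no value here. Map1lc3b, which encodes the widely used autophagosome marker LC3B, had 12.7 FPKM in DCA against 12.3 in NC, resting on 7788 and 7925 reads. Its ratio was 1.03 (0.997 to 1.06). Gabarap against Map1lc3b gave a factor of 1.03 (0.989 to 1.06). Gabarapl2 was at 0.991 (0.928 to 1.06). Map1lc3a, with 351 and 380 reads, was at 0.967 (0.834 to 1.12). Per kilobase of merged exons, Gabarap made up 77.4% of the summed ATG8 transcripts in DCA and 76.9% in NC, Gabarapl1 10.1% and 10.1%, and Map1lc3b 6.11% and 6.23%. The order of the 5 transcripts was thus the same in both libraries.

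Among the cargo receptors, Sqstm1 was the most abundant by far. Sqstm1, which encodes p62, a receptor for ubiquitin-marked protein (ENSMUSG00000015837, chromosome 11, minus strand), stood at 62.5 FPKM in DCA against 61.7 in NC, resting on 30228 and 31226 reads. Its ratio of 1.01 (0.997 to 1.03) had the tightest interval of the 36 genes and included equality. Tax1bp1, a receptor that also takes part in damping inflammatory signalling, had 24.6 FPKM in DCA against 23.7 in NC, giving a ratio of 1.04 (1.02 to 1.06). Nbr1, a partner of p62, had 3.74 and 3.76 FPKM, for a ratio of 0.996 (0.967 to 1.03). Optn, which encodes optineurin, a receptor for damaged mitochondria and bacteria, had 2.06 FPKM in DCA against 2.23 in NC, resting on 1075 and 1219 reads. Its ratio of 0.923 (0.849 to 1.003) was the lowest of the 4 and its interval included equality. Sqstm1 shares 580 of 3356 exonic bases (17.3%) with Mrnip on the opposite strand, with 79 DCA and 135 NC reads.

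RefSeq promoter windows on GRCm38.p6, from 250 bases before to 50 after an annotated start, were found for 30 of the 36 genes, in 35 windows. They were searched on both strands for CACGTG, the E-box bound by factors such as TFEB, the regulator of lysosomal and autophagy genes. A longer palindrome of 10 letters that contains it, the CLEAR element of lysosomal genes, and TGACNNNGC, the core of the antioxidant response element, were searched too. CACGTG was found in 5 of the 30 genes (16.7%), against 8.09% of all 27025 symbols with a window. The CLEAR palindrome was found in 0 of 30 (0.370% of all symbols), and TGACNNNGC in 4 of 30 (13.3%, against 13.99%). A match describes the letters of the window and is not a measured binding site. The stretches around CACGTG are printed 5′ to 3′ on the strand of the gene, with CACGTG in capitals, and that of Atg14 spans the annotated start. They are shown since they allow the letters to be set beside the ratios.
Rubcn, chr16:32868432-32868471, minus strand: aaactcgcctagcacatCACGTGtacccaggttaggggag
Atg7, chr6:114670947-114670986, plus strand: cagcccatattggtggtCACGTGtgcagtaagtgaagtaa
Atg5, chr10:44268308-44268338, plus strand: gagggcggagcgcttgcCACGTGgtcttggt
Atg3, chr16:45158718-45158757, plus strand: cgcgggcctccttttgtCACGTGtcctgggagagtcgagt
Atg3, chr16:45158741-45158780, plus strand: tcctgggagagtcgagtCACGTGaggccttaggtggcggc
Atg14, chr14:47568422-47568443, minus strand: caaaatccCACGTGactggccc
The ratios of these 5 genes were 1.16 for Rubcn, 1.08 for Atg7, 1.07 for Atg5, 0.998 for Atg3 and 0.895 for Atg14. The windows of Rubcn, Atg7 and Atg14 belong to annotated starts inside the gene. The outer 5′ ends of Rubcn, Atg7 and Atg14 are at 32877766, 114643097 and 47570649, while the ratios cover the whole gene. The window of Atg3 also belongs to a start just inside the gene, but both its printed stretches lie before the outer 5′ end at 45158785. Whether the letters bear on the ratios was not tested.

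Other genes of the pathway were described through 5 lists with 114 genes, of which 106 had a mean FPKM of at least 1. Of these, 53 were higher and 53 lower in DCA, with a median difference of 0.0014. At least 1.1-fold apart were 7 genes, 2 higher and 5 lower, which is 6.60% of the 106 against 13.8% of all genes. In the list of the TFEB family and nutrient sensing, 17 of 36 genes were higher, with a median difference of -0.0084. Ddit4, a stress-induced inhibitor of the growth kinase complex mTORC1, had 7.54 FPKM in DCA against 5.22 in NC, giving a ratio of 1.45 (1.29 to 1.62). Castor1, an arginine sensor upstream of mTORC1, had 2.12 FPKM in DCA against 1.53 in NC, giving a ratio of 1.38 (1.11 to 1.73), resting on 189 and 143 reads. The lysosomal platform that recruits mTORC1 is formed by the Rag GTPases and the Ragulator complex. The Rag genes of the list were lower in DCA, and the Ragulator genes lay on both sides of equality. The Rag GTPase gene Rraga had 33.5 FPKM in DCA against 38.1 in NC, giving a ratio of 0.879 (0.837 to 0.922), and the Ragulator gene Lamtor4 25.02 and 28.1 FPKM, for a ratio of 0.889 (0.844 to 0.937). Rragc was also lower at 0.9285 (0.9076 to 0.94998), as was Rragd, with a mean FPKM below 1, at 0.890 (0.808 to 0.980). Lamtor1 was higher at 1.07 (1.03 to 1.11), and the intervals of Lamtor2 at 1.03 (0.962 to 1.09), Lamtor3 at 0.966 (0.925 to 1.01) and Lamtor5 at 0.961 (0.906 to 1.02) included equality. Tfeb itself was at 1.08 (1.02 to 1.15), Tfe3 at 0.983 (0.953 to 1.01), Mitf at 0.994 (0.949 to 1.04) and Tfec, the fourth factor of the family, at 0.920 (0.857 to 0.987). Mtor was at 1.01 (0.975 to 1.05). These 5 genes, Rragc, Rragd and the other 4 Lamtor genes were named after their values were seen.

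Accessory factors of the forming autophagosome were higher in 10 of 17 genes, with a median difference of 0.0045 that was -0.0050 after rescaling and -0.0022 after centring on the median gene. Wdr45b, a PI3P reader related to the WIPI proteins, had a ratio of 0.895 (0.851 to 0.940), and Rab33b, a GTPase that binds ATG16L1, 0.879 (0.824 to 0.939). Genes of fusion with the lysosome were higher in 7 of 18, with a median of -0.012, and none was 1.1-fold apart. Genes of selective autophagy outside the 4 receptors were higher in 13 of 27, with a median of -0.00049. Among them Nufip1, a receptor for ribosomes, had 5.13 FPKM in DCA against 5.81 in NC, giving a ratio of 0.883 (0.815 to 0.955). The list of LC3-associated phagocytosis and conjugation to single membranes, which holds the NADPH oxidase subunits, was higher in 7 of 9 genes, against 53.5% of all genes, with a median of 0.051. Neutrophils also express the oxidase subunits and Rac2, and in the same libraries the neutrophil markers were higher in 12 of 12 with a median of 0.22, whose part in this list's values was not tested. Of that list Rac2 was at 1.07 (1.05 to 1.09) and Cyba at 0.925 (0.906 to 0.944), both named after their values were seen. Rubcn, which that pathway also needs, was at 1.16 in the same libraries.

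**Figure D4:**
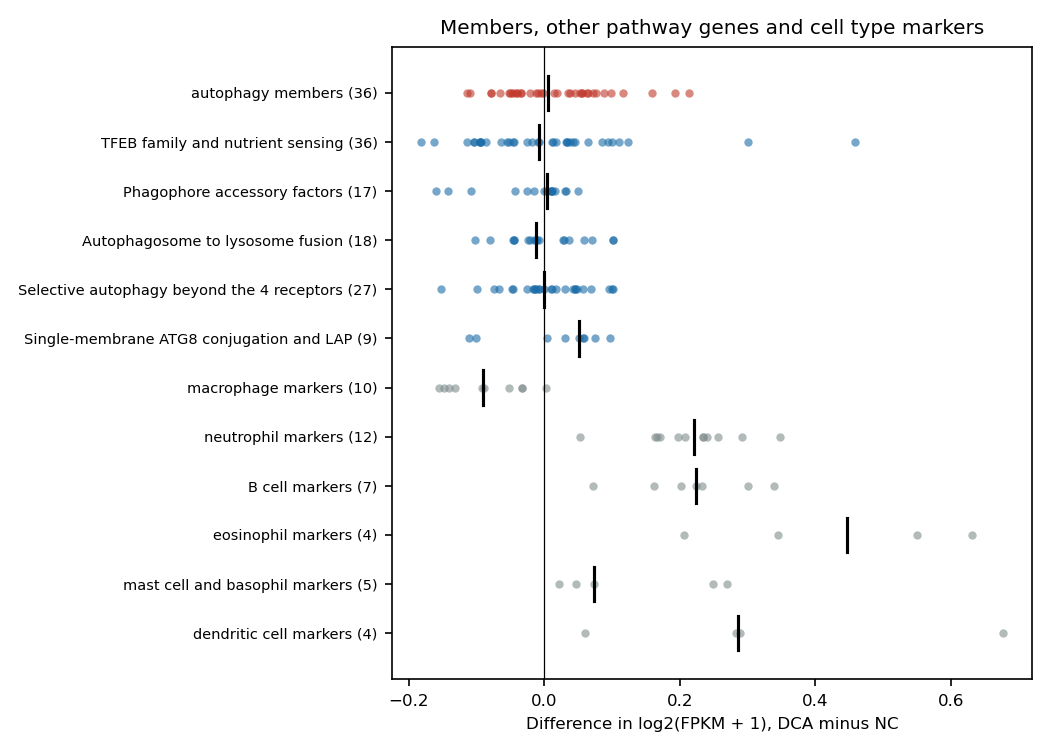
Points are single genes whose mean FPKM was 1 or more, and black bars are list medians, on the scale of log2(FPKM + 1) in DCA minus that in NC, with the number of genes in brackets. LAP stands for LC3-associated phagocytosis. The autophagy genes and the 5 other pathway lists lie around 0, the neutrophil, B cell, eosinophil and dendritic cell markers lie to the right, and 9 of 10 macrophage markers lie to the left.

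Neutrophil, B cell, eosinophil and dendritic cell markers had larger median differences between the libraries than the autophagy genes, at 0.22, 0.22, 0.45 and 0.29. Each of the 12 neutrophil genes had a higher value in DCA, with a summed level of 4253 FPKM in DCA against 3596 in NC. All 7 B cell markers whose mean FPKM was 1 or more were higher (summed over the 9 of the list, 169 against 137 FPKM), led by Cd79a at 76.7 and 60.4 FPKM. The B cell markers below 1 FPKM were split. Igll1 was lower at 0.488 (0.317 to 0.739), with 35 reads in DCA and 75 in NC. Vpreb1 was higher at 2.01 (1.21 to 3.40), with 48 and 25 reads. All 4 such eosinophil markers were higher (108 against 74.0 FPKM summed over 5), and all 4 such dendritic cell markers (128 against 103 FPKM summed over 7). Most of the sum of the dendritic cell list was Ly6d, with 98.4 FPKM in DCA and 80.3 in NC. Its ratio was 1.22 (1.17 to 1.28), beside 1.27 (1.22 to 1.32) for the B cell marker Cd79a. Which cells the Ly6d reads came from was not tested. Among dendritic cell markers below 1 FPKM, Zbtb46 (0.935) and Xcr1 (0.669) had lower ratios and Clec9a (1.16) a higher ratio. The intervals of these genes included equality. All 5 mast cell and basophil markers in the table were higher (18.3 against 16.3 FPKM). The intervals of 2 of them lay above equality, and those of the rest included it. The 4 T cell markers in the table were below 1 FPKM. Cd3d and Cd3g had 14 and 17 reads in DCA and were listed at 0 in NC, and Lck had 300 reads in DCA and 200 in NC. Cd3e went the other way, with 7 reads in DCA and 16 in NC. Macrophage markers were lower in 9 of 10, with a median difference of -0.091 and a summed level of 960 against 1001 FPKM. In bulk RNA, fewer cells of a type and less RNA per cell cannot be told apart. These cell types also carry autophagy transcripts, and the part of their markers' differences in the ratios of the 36 genes was not tested.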

How the data were processed

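RNA of mouse bone marrow-derived macrophages was sequenced in 1 DCA and 1 NC library. The authors deposited FPKM per gene. Per the submitters' processing notes, which state no role or order, the genome build was GRCm38 and the tools included HTSeq 0.6.0, STAR 2.5.0c, DESeq2 3.0, bedtools 2.17.0 and Picard 1.126. The length of each gene, the strand setting and any filter were not given in the sources used here.

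Reads were rebuilt from the FPKM with the summed transcript lengths of GENCODE vM21. Of 10521 genes with 1 to 5000 reads in both libraries, 10145 (96.4%) came out whole within 0.05 of a read. Python 3.11.15, numpy 2.4.6, pandas 2.3.3 and scipy 1.17.1 were used. Differences are log2(FPKM + 1) in DCA minus that in NC, over all genes whose mean FPKM was 1 or more. With 1 library per group there was no test. Counting intervals are exact 95% intervals on the share of reads from DCA, and those of gene pairs use the normal approximation on the log scale. Read rebuilding and intervals were tested on simulated data.

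Alternatives were the pseudocount, the filter, the scaling, leaving out genes with overlapping exons, and keeping only genes with whole rebuilt reads, without a pseudocount. The autophagy genes, lists and limits were chosen with earlier results of these data known. Text names all 36 autophagy genes, up to 2 genes per direction at least 1.1-fold apart in each pathway list, markers of highest level, and genes sharing exons. Cd3e, Cd3g, Tfeb, Tfe3, Mitf, Tfec, Mtor, Rragc, Rragd, Lamtor1, Lamtor2, Lamtor3, Lamtor5, Rac2, Cyba, Zbtb46, Xcr1, Clec9a, Igll1 and Vpreb1 were named after their values were seen. Coordinates are 1-based.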

Additional observations from a re-analysis of the deposited data

How the results depend on the processing

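Of the 9 alternatives, only rescaling each library to 1e6 and centring on the median gene could change the sign of a gene. No gene of the 36 changed sign under either. The others change the pseudocount or the genes kept, which cannot alter a sign. The count at least 1.1-fold higher was 3 and became 4, with Ulk1 added, with pseudocount 0.1 and with no pseudocount, 0 with pseudocount 5, and 1 both with a filter at mean FPKM 5 and without genes with overlapping exons. These last settings keep 18 and 22 of the 36 genes. The count at least 1.1-fold lower was 0. It became 2 with pseudocount 0.1, with no pseudocount, after rescaling each library to 1e6 and with rebuilt reads. The setting called rebuilt reads kept genes with whole rebuilt reads, at least 50 over both libraries. It used their FPKM with no pseudocount, so it is not a separate calculation from reads. The counts of genes higher and lower, 18 each, became 11 and 7 with a filter at mean FPKM 5, and 9 were higher without overlapping genes. The median of the 36 genes ranged from -0.0068 to 0.036 and was negative after rescaling (-0.0051), centring on the median gene (-0.00093) and without overlapping genes (-0.0068). The ATG8 median became -0.012 without overlapping genes, the receptor median -0.0066 after rescaling, and the conjugation median 0.053 with a filter at mean FPKM 5. Without overlapping genes, Nbr1 is the only receptor kept, at -0.0049. The lipid transfer median became 0.019 with that filter, and conjugation 0.0096 with rebuilt reads, which leave out Atg4a. Among the pathway lists, nutrient sensing became 0.013 with that filter and 0.0021 without overlapping genes, and selective autophagy 0.0063 with no filter, 0.011 with rebuilt reads and 0.00049 without overlapping genes. After rescaling, 3 of the 36 were at least 1.1-fold higher and 2 lower. Of all genes that far apart, 54.0% were higher, against 65.2% in the main setting. The FPKM sums were 151621 in DCA and 150233 in NC, so rescaling also enlarged all values against the fixed pseudocount and filter of 1. With pseudocount 0.1 and no rescaling, 2 of the 36 were that far lower and the share was 61.5%. Centring on the median gene left 0 lower, with a share of 60.2%. The part of the scaling itself was not separated. No replicate could be left out with 1 library per group. No paired analysis was possible because the groups share only 1 replicate number. Depth limits Map1lc3a, Atg10 and Atg4a most.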
